A study of Mus musculus with 4 samples.

Results

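The genes of the mitochondrial carrier family SLC25 were followed in EO771 cells, a mouse mammary carcinoma line from C57BL/6 mice, either exposed to 1.0 µM BML-210 for 48 h or left unexposed. Members were the entries of the deposited counts table whose gene name begins with Slc25a and a digit: 50 of 56350 entries, with 48 distinct names. BML-210 inhibits histone deacetylases (HDACs), enzymes that take acetyl groups off histones and other proteins. There were 4 RNA libraries, 2 with the label BML-210 and 2 with the label untreated. All cells grew in the same serum medium, and elsewhere the labels call the control WT or vehicle. Nothing in the labels says that the libraries of a group came from separate cultures, so every p-value measures only the spread between these libraries, which may be technical. The library codes carry the letter V for the libraries labelled BML-210 and D for those labelled untreated. No source used here explains these letters, so each direction below rests on the treatment labels and would turn round if the groups had been exchanged.

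SLC25 proteins sit in the inner mitochondrial membrane, with a few in other membranes, and pass solutes between the matrix and the cytosol. Most work as exchangers that open to 1 side at a time, and each is built from repeated modules that carry a shared signature sequence. Their cargo covers ADP and ATP, phosphate, the acids of the citrate cycle, amino acids, acylcarnitines, cofactors, iron and glutathione, so the family links the respiratory chain to the metabolism of the rest of the cell. The carriers are made in the cytosol and reach the inner membrane through the TOM and TIM22 translocases. Here the members were read in 9 classes by known cargo.

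Depth was 13167893 and 13961743 counted reads in BML-210 libraries and 16534667 and 13855061 in untreated libraries, and the 50 SLC25 entries took 0.231% and 0.230% of them in BML-210 libraries and 0.233% and 0.234% in untreated libraries. The most abundant entry, Gm26917, held 4.04% and 4.45% of counts in BML-210 libraries and 5.52% and 6.41% in untreated libraries. Of 8 mammary epithelial markers, Krt8 alone had over 20 CPM (counts scaled to library size by TMM, in the usual CPM unit): the list summed to 29.9 and 34.5 CPM in BML-210 libraries and to 46.2 and 51.4 CPM in untreated libraries, and Krt18 and Epcam were at or near 0. The 7 macrophage markers summed to 35.4 and 34.5 CPM in BML-210 libraries and to 167 and 170.9 CPM in untreated libraries, nearly all of it Cd68. Of the 4 tested macrophage markers 2 fell, Cd68 and the low Adgre1, which had 1 and 4 counts in BML-210 libraries and 33 and 13 counts in untreated libraries (log2 fold change -2.99, adjusted p = 3.83e-05 in edgeR). Only 1 of them was called without untreated replicate 1 or with genes of at least 1 CPM, and Tyrobp, C1qb and Csf1r were too low to test. The 5 fibroblast markers summed to 116 and 123 CPM in BML-210 libraries and to 176 and 183 CPM in untreated libraries. Nearly all of it was Pdgfra and Col1a1, with Dcn, Lum and Thy1 at or near 0. Pdgfra fell, with means of 97.5 CPM in BML-210 and 156.3 CPM in untreated libraries (log2 fold change -0.68, edgeR adjusted p = 8.85e-20). Col1a1 overlapped between groups, with means of 21.95 CPM in BML-210 and 22.93 CPM in untreated libraries (edgeR adjusted p = 0.706). The 5 adipocyte markers summed to 21.3 and 22.6 CPM in BML-210 libraries and to 20.45 and 23.2 CPM in untreated libraries, with Adipoq at 0. The part of these markers in the results on carriers was not tested.

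Of the 50 entries, 39 had enough counts to be tested and 11 had not. Of the 39, 8 were higher with BML-210 and 8 were lower at an adjusted p below 0.05 (edgeR quasi-likelihood test, Benjamini-Hochberg over all 14455 tested genes), and 23 did not pass. The carriers called were 20.5% higher and 20.5% lower of those tested, beside 22.9% and 23.5% of all tested genes, so the family had about the background share in either direction. The median log2 fold change of the tested members was 0.04, against -0.0025 over all tested genes. Changes were mostly small: the median size of the log2 fold change was 0.158 over the members and 0.254 over all tested genes, and 1 called member, Slc25a23, changed 2-fold or more. The values of BML-210 and untreated libraries did not overlap for 25 of the 39 tested members, 64.1% of them, beside 71.3% of all tested genes. In a bulk sample, fewer cells that express a gene and less RNA per cell cannot be told apart.

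Of the 16 called members, 7 kept their call under each of 12 alternative settings: Slc25a36 and Slc25a40 were higher, and Slc25a1, Slc25a4, Slc25a23, Slc25a37 and Slc25a42 were lower. The other 9 lost it under DESeq2, which called 2 members higher and 5 lower. Without BML-210 replicate 1 the counts were 5 higher and 6 lower, and without untreated replicate 2 they were again 5 higher and 6 lower. None of the 16 changed sign under any of the 12 settings.

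**Figure D1:**
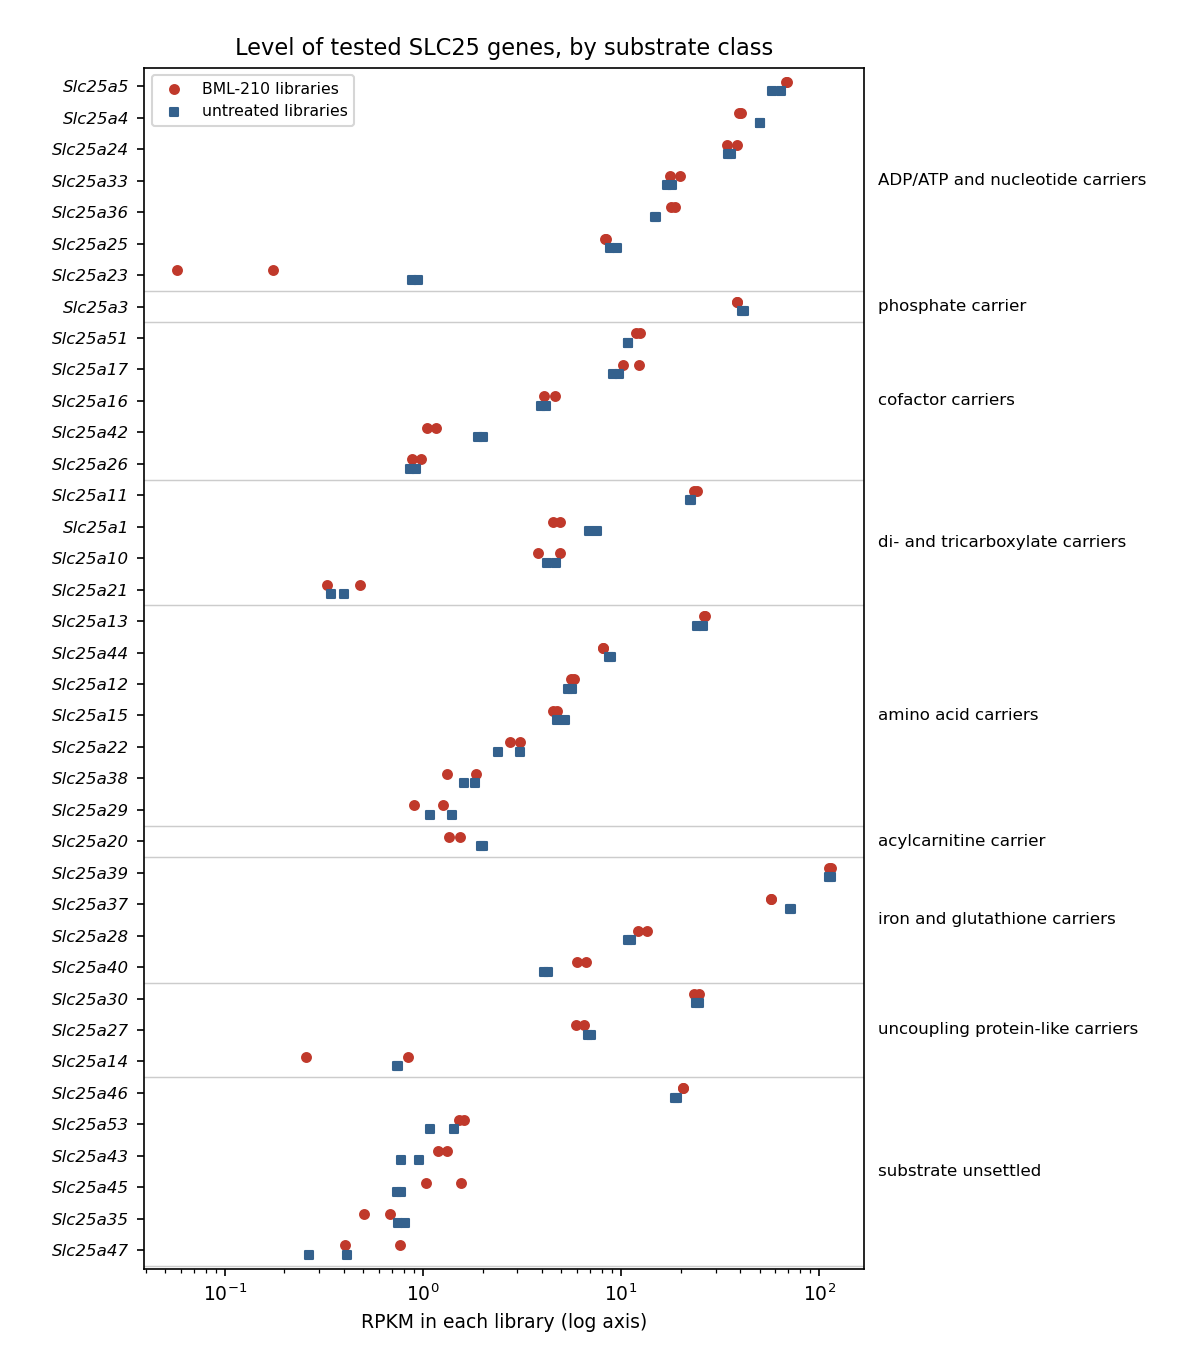
Level of tested SLC25 genes in each library, in RPKM (CPM per kilobase of exon, log axis), grouped by substrate class; circles are the 2 BML-210 libraries and squares the 2 untreated libraries. Slc25a39 stood highest at a mean of 113.6 RPKM, and the groups stood clearly apart for Slc25a23.

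The family's transcripts were unevenly spread. Per length, the highest carrier was Slc25a39, the mitochondrial glutathione importer, at a mean over the 4 libraries of 113.6 RPKM (CPM per kilobase of exon), which made up 19% of the family's sum. It was followed by Slc25a5 (64.8 RPKM) and Slc25a37 (64.2 RPKM), then Slc25a4 (45.1 RPKM), the phosphate carrier gene Slc25a3 (39.8 RPKM) and Slc25a24 (35.8 RPKM), and these 6 genes together held 60.7% of the sum. Neighbours in this order were not always separate: Slc25a5 lay above Slc25a37 in BML-210 libraries (68.3 against 57.1 RPKM) and below it in untreated libraries (61.2 against 71.4 RPKM). Of the 50 entries, 3 had a mean over 50 RPKM, 12 lay between 10 and 50, 18 between 1 and 10, and 17 under 1. Summed over members, RPKM came to 594 and 593 in BML-210 libraries and to 604 and 603.5 in untreated libraries. The class shares of that sum moved little: iron and glutathione carriers held 32.4% and 31.6% in BML-210 libraries and 32.8% and 33.5% in untreated libraries, and ADP/ATP and nucleotide carriers 31.6% and 32.4% in BML-210 libraries and 31.9% and 30.9% in untreated libraries. Within both classes, called genes with the same cargo differed in direction. The calls of the rising ones, Slc25a5 and Slc25a28, did not hold under every setting.

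The regions just before the starts of 4 genes are shown because these genes carry the contrasts described next: Slc25a4 and Slc25a5 encode the pair of ADP/ATP carriers that split, and Slc25a40 and Slc25a42 had the largest rise and fall that held under every setting among genes with a single start in the RefSeq table. Each is the 250 bases before the RefSeq start, 5′ to 3′ on the gene's strand, in GRCm38.p6, the assembly also named mm10. The RefSeq start is not always the outer end of the entry in the counts table. Most of the Slc25a4 window, with its CCAAT boxes, lies inside the counted entry, which ends at 46211284. A short part of the Slc25a42 window also does, as that entry ends at 70212305. The windows of Slc25a5 and Slc25a40 lie outside their entries. Capitals mark matches to CCAAT (the CCAAT box) or GGGCGG (the GC box) on either strand, and matches to the 2 motifs did not overlap in these windows.
Slc25a4, chr8:46211063-46211312, minus strand: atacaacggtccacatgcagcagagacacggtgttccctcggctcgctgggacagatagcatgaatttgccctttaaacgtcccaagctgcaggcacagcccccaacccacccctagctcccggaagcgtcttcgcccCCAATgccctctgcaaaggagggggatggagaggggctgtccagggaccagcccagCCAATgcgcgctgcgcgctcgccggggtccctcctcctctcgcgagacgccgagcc
Slc25a5, chrX:36795347-36795596, plus strand: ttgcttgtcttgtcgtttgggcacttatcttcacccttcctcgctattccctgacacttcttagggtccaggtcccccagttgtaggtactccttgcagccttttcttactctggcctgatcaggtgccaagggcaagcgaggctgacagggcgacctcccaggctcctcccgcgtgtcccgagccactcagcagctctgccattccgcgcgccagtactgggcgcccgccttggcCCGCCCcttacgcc
Slc25a40, chr5:8422588-8422837, plus strand: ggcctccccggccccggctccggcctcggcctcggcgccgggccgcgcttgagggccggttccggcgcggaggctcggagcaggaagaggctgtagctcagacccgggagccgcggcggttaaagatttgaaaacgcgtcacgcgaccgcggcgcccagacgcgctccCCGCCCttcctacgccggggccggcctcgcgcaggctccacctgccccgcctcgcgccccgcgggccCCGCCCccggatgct
Slc25a42, chr8:70212282-70212531, minus strand: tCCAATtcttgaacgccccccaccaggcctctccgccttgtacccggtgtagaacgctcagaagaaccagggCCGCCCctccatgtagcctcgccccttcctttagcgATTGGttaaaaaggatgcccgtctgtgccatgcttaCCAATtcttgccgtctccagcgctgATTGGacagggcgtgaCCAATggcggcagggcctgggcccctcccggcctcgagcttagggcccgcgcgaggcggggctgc
The window of Slc25a4 held 2 CCAAT boxes and no GC box, and that of Slc25a5 held 1 GC box and no CCAAT box. Slc25a42 had 5 CCAAT boxes and 1 GC box, whereas Slc25a40 had 2 GC boxes, no CCAAT box and the highest content of G and C of the 4, at 78.0%. None of the 4 windows held the E-box CACGTG, the NRF1 motif (GCGC, any base, TGCGC) or TATAAA. Of the 46 windows of 36 SLC25 genes in the table, 21 (45.7%) held a CCAAT box, 32 (69.6%) a GC box, 8 (17.4%) an E-box, 2 (4.35%) the NRF1 motif and 2 (4.35%) TATAAA. Over all 32851 windows of the same length in the table the shares were 33.8%, 32.7%, 6.02%, 3.74% and 12.4%. Those windows were not matched to the family for expression or for content of G and C, and a gene with several starts counts more than once. Whether the differences are particular to the family was not tested. These matches are descriptions of letters and show no factor bound.

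Among nucleotide carriers, the heart isoform gene of the ADP/ATP carrier fell and the isoform gene of growing cells rose. The ADP/ATP carriers (ANTs) hand ATP from the matrix to the cytosol in exchange for ADP. Slc25a4, which encodes ANT1 (ENSMUSG00000031633.4, chromosome 8, 46206797 to 46211284, mm10), had 94.8 and 92.4 CPM in BML-210 libraries and 119 and 119 CPM in untreated libraries. The groups did not overlap (log2 fold change -0.34 ± 0.05 SE, adjusted p = 9.24e-09 in edgeR). Slc25a5, which encodes ANT2 (ENSMUSG00000016319.3, chromosome X, 36795651 to 36798807), had 113 and 112 CPM in BML-210 libraries and 106 and 95.6 CPM in untreated libraries. Its rise of 0.16 ± 0.05 (SE; edgeR adjusted p = 0.00609) was smaller, and its adjusted p was 0.209 without untreated replicate 2, the library with the lowest value, and 0.0911 in DESeq2. Per length, the ratio of Slc25a4 to Slc25a5 was 0.587 and 0.578 in BML-210 libraries and 0.786 and 0.867 in untreated libraries, so Slc25a5 was the more abundant in all 4 and more so in the BML-210 libraries. The exact two-sided permutation test of this ratio gave p = 0.333, the smallest that 2 libraries against 2 allow. The coding sequences of the pair were 77.6% identical, and the longest run of bases that their transcripts shared was 20, against reads of 100 bases. Slc25a5 also has a pseudogene entry, Slc25a5-ps, with 0 and 1 counts in BML-210 libraries and 0 and 0 in untreated libraries, and the handling of reads that match more than 1 place is not stated in any source used here. Slc25a31, the ADP/ATP carrier gene of the germ line, had 0 counts in all 4 libraries.

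The largest change of the family was that of Slc25a23, which encodes a calcium-regulated carrier that swaps ATP-Mg for phosphate (ENSMUSG00000046329.14, chromosome 17, 57043711 to 57059863). It had 4 and 13 counts (0.303 and 0.928 CPM) in BML-210 libraries and 82 and 64 counts (4.99 and 4.66 CPM) in untreated libraries. The groups were far apart although the gene is a minor one, and its log2 fold change was -2.94 (SE 0.34, adjusted p = 9.55e-11 in edgeR), a 7.66-fold fall. That size rests on few counts: it was -3.96 without BML-210 replicate 2 and -2.37 without BML-210 replicate 1. Of its relatives with the same cargo none passed, though the values of Slc25a25 also lay lower with BML-210. Slc25a24, the most abundant of this group, had 117 and 133 CPM in BML-210 libraries and 123 and 119 CPM in untreated libraries, overlapping values with a log2 fold change of 0.05 (95% interval -0.05 to 0.14, edgeR adjusted p = 0.418). Slc25a25 had 66.2 and 65.4 CPM in BML-210 libraries and 69.4 and 74.6 CPM in untreated libraries, and its log2 fold change of -0.13 (edgeR adjusted p = 0.0556) missed the threshold. It passed without untreated replicate 1 (edgeR adjusted p = 0.0240), with upper-quartile scaling (0.0174), with genes of at least 1 CPM (0.0414) and with the replicate number as a block (0.0479), and its exons overlap those of Naif1 on the opposite strand. Slc25a41 was too low to test, with 1 and 1 counts in BML-210 libraries and 5 and 1 in untreated libraries. The pyrimidine nucleotide carrier gene Slc25a36 (ENSMUSG00000032449.13, chromosome 9, 97074961 to 97111157) rose, with 179 and 172 CPM in BML-210 libraries and 144.5 and 142 CPM in untreated libraries. All its BML-210 values lay above the untreated ones, with a log2 fold change of 0.29 (SE 0.04, adjusted p = 1.33e-08 in edgeR). Its partner with the same kind of cargo, Slc25a33, did not pass (33.5 and 37.6 CPM in BML-210 libraries, 32.1 and 34.2 CPM in untreated libraries).

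Phosphate enters the matrix through the carrier encoded by Slc25a3 to be joined to ADP by ATP synthase. It had 214 and 212 CPM in BML-210 libraries and 226 and 232 CPM in untreated libraries, a log2 fold change of -0.10 (SE 0.04, adjusted p = 0.0188 in edgeR). The groups were separate but close, and the call ended under 6 of the 12 settings: without BML-210 replicate 1 (0.0732), BML-210 replicate 2 (0.131) or untreated replicate 2 (0.0964), with library size only (0.0521), with no filter (0.0514) and in DESeq2 (0.162).

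**Figure D2:**
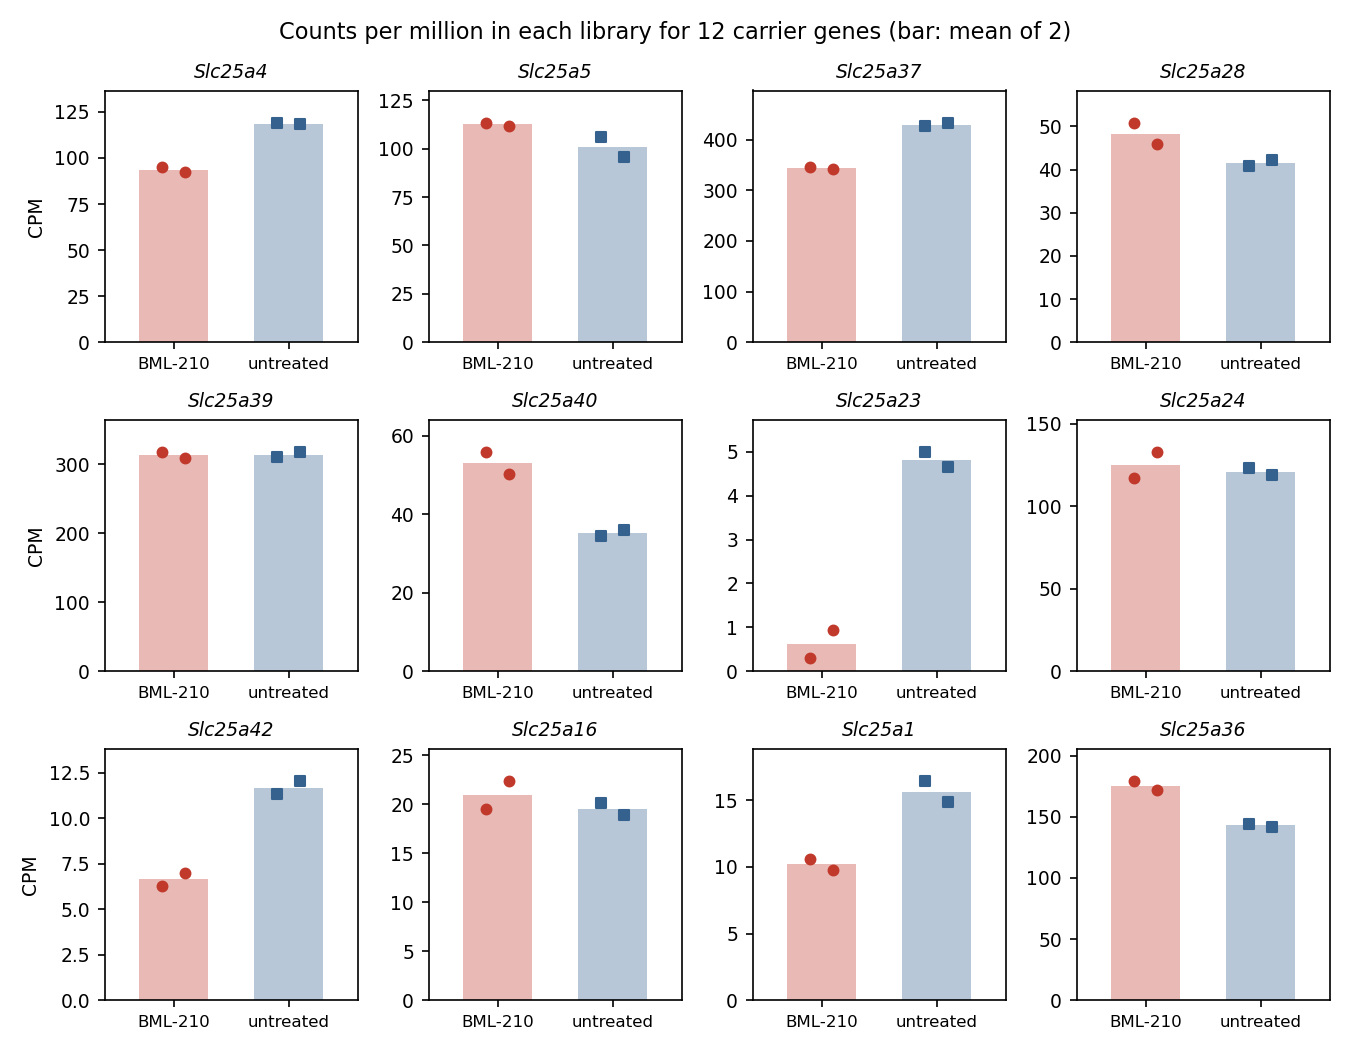
CPM of 12 carrier genes, each panel with the 2 BML-210 libraries (circles) left of the 2 untreated libraries (squares); bars are means and axes start at 0. Slc25a4, Slc25a37, Slc25a23, Slc25a42 and Slc25a1 lie lower and Slc25a5, Slc25a28, Slc25a40 and Slc25a36 higher in the BML-210 libraries, while those of Slc25a39, Slc25a24 and Slc25a16 overlap.

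Iron and glutathione carriers also split within a shared cargo. Slc25a37 encodes mitoferrin-1, which brings iron into the matrix for haem and iron-sulfur clusters (ENSMUSG00000034248.7, chromosome 14, 69241848 to 69285112). It had 344.9 and 342.5 CPM in BML-210 libraries and 427 and 432 CPM in untreated libraries. The libraries of each group lay close together and the groups well apart, with a log2 fold change of -0.32 (SE 0.03, adjusted p = 1.74e-13 in edgeR). Slc25a28, which encodes mitoferrin-2, had 50.7 and 45.9 CPM in BML-210 libraries and 40.8 and 42.2 CPM in untreated libraries, and rose by 0.22 on the log2 scale (SE 0.07, adjusted p = 0.00632 in edgeR). That call ended without BML-210 replicate 1 (adjusted p = 0.190), without untreated replicate 1 (0.0635) and in DESeq2 (0.105). Per length, Slc25a37 exceeded Slc25a28 by 4.23 and 4.65 times in BML-210 libraries and by 6.52 and 6.38 times in untreated libraries (exact two-sided permutation p = 0.333, the smallest possible).

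The glutathione carrier genes differed as well. Slc25a40 (ENSMUSG00000054099.11, chromosome 5, 8422850 to 8454797), a close relative of the glutathione importer gene Slc25a39, had 55.8 and 50.2 CPM in BML-210 libraries and 34.4 and 36.0 CPM in untreated libraries. This was the largest rise that held under all 12 settings, with a log2 fold change of 0.59 (SE 0.07, adjusted p = 1.84e-10 in edgeR). Slc25a39 itself had 317 and 308 CPM in BML-210 libraries and 309.9 and 317 CPM in untreated libraries. Its groups overlapped, and the 95% interval of its log2 fold change ran from -0.07 to 0.06. Per length, Slc25a39 exceeded Slc25a40 by 17.3 and 18.7 times in BML-210 libraries and by 27.4 and 26.8 times in untreated libraries (exact two-sided permutation p = 0.333, the smallest possible). The coding sequences of Slc25a39 and Slc25a40 were 55.0% identical and those of the mitoferrin genes 66.3%, with longest shared runs of 19 and 15 bases.

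Cofactor carriers went both ways, with 2 of 6 tested members higher and 2 lower, beside 22.9% and 23.5% of all tested genes. Slc25a42, which encodes an exchanger of coenzyme A for adenine nucleotides (ENSMUSG00000002346.16, chromosome 8, 70184340 to 70212305), had 6.28 and 6.99 CPM in BML-210 libraries and 11.3 and 12.02 CPM in untreated libraries. The groups were clearly apart, with a log2 fold change of -0.81 (SE 0.15, adjusted p = 1.10e-05 in edgeR), a 1.75-fold fall. Slc25a16, also linked to coenzyme A in the matrix, had 19.5 and 22.3 CPM in BML-210 libraries and 20.2 and 18.9 CPM in untreated libraries, values that overlap. Slc25a51, the NAD importer gene, had 68.5 and 65.4 CPM in BML-210 libraries and 59.7 and 59.4 CPM in untreated libraries (log2 fold change 0.17, edgeR adjusted p = 0.0133). Slc25a17, whose product carries cofactors into peroxisomes, had 35.05 and 29.0 CPM in BML-210 libraries and 27.8 and 26.1 CPM in untreated libraries (log2 fold change 0.24, edgeR adjusted p = 0.0188). Neither call held throughout: the adjusted p of Slc25a51 was 0.155 without BML-210 replicate 1, 0.0550 without untreated replicate 1, 0.0527 without untreated replicate 2 and 0.143 in DESeq2, and that of Slc25a17 was 0.495 without BML-210 replicate 1, 0.103 without untreated replicate 2 and 0.164 in DESeq2. Slc25a26, the carrier gene for the methyl donor S-adenosylmethionine, overlapped between groups. It had 4.69 and 4.21 CPM in BML-210 libraries and 4.14 and 4.44 CPM in untreated libraries. Its exons share sequence with Lrig1 on the opposite strand, a far more abundant gene that rose by 0.338 on the log2 scale (adjusted p = 1.22e-08 in edgeR).

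The folate and FAD carrier gene Slc25a32 cannot be read from this table. It is listed on chromosome 15 and again on an extra scaffold, KQ030493.2, with the same exonic length, and the chromosome entry had 2 and 1 counts in BML-210 libraries and 0 and 1 in untreated libraries, with 0 for the scaffold entry. Of 592 genes listed in this double way, 573 (96.8%) had under 10 counts over the 4 libraries in both entries, against 66.2% of all other entries. Slc25a31 is listed in the same way.

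**Figure D3:**
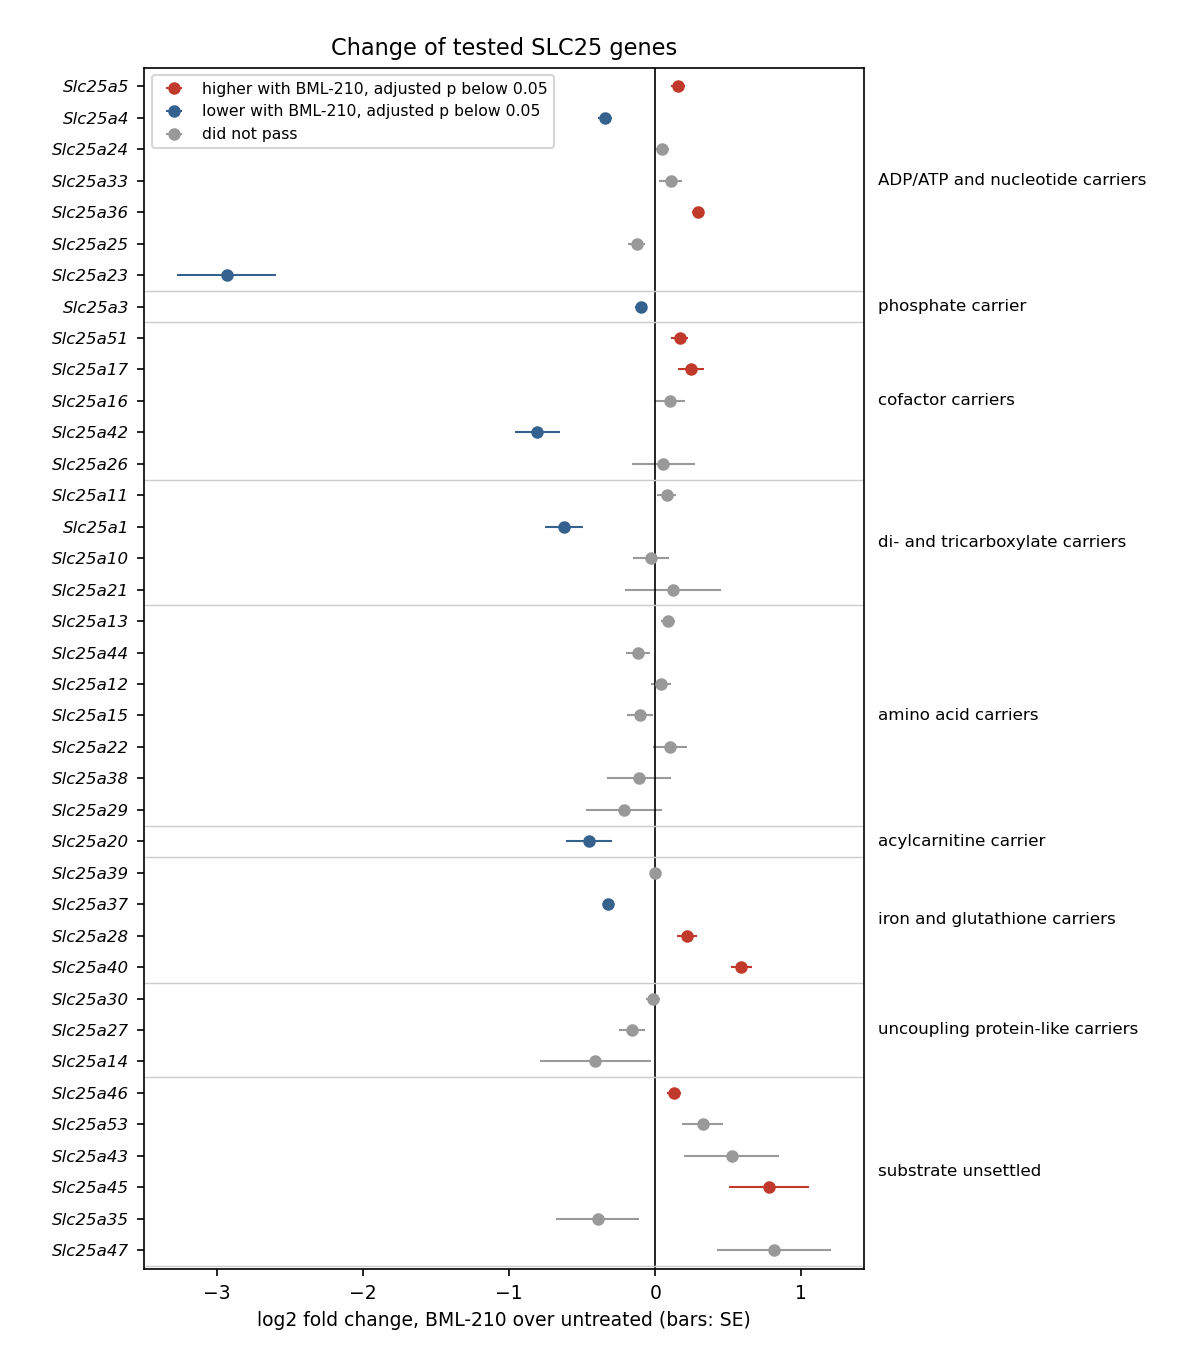
Log2 fold change of tested SLC25 genes, BML-210 over untreated, each with its SE as a bar, grouped by substrate class and coloured by the test. The amino acid class holds no called gene, and Slc25a23 lies at -2.94, far beyond the rest.

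The citrate carrier gene was the one of 4 di- and tricarboxylate carriers to pass, beside 46.4% of all tested genes. Slc25a1 (ENSMUSG00000003528.15, chromosome 16, 17925223 to 17928219) encodes the protein that takes citrate to the cytosol, where it feeds fatty acid and sterol synthesis. It had 10.6 and 9.78 CPM in BML-210 libraries and 16.4 and 14.9 CPM in untreated libraries, with a log2 fold change of -0.62 (SE 0.13, adjusted p = 4.94e-05 in edgeR). All untreated values lay above the BML-210 ones. The most abundant of the class per length, the oxoglutarate-malate carrier gene Slc25a11, had 51.0 and 49.4 CPM in BML-210 libraries and 47.6 and 47.4 CPM in untreated libraries, a log2 fold change of 0.08 that did not pass (edgeR adjusted p = 0.331). Slc25a11 shares exon sequence with Rnf167 on the opposite strand, a gene that fell by 0.45 on the log2 scale (adjusted p = 2.84e-05 in edgeR), and the strand setting of the counting is not stated. Slc25a10, the dicarboxylate carrier gene, and the low Slc25a21, for oxoadipate, overlapped between groups. Slc25a21 shares exon sequence with Pax9 on the opposite strand, a far more abundant gene that rose by 0.455 on the log2 scale (adjusted p = 1.5e-08 in edgeR).

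No amino acid carrier gene passed among 7 tested in edgeR, beside 46.4% of all tested genes in either direction. The 7 log2 fold changes lay between -0.21 and 0.10. None of the 7 had an unadjusted p below 0.05, and DESeq2 and limma-voom called none. Slc25a13, for citrin, the aspartate-glutamate carrier of the malate-aspartate shuttle, was the most abundant per length, with 100.9 and 100.1 CPM in BML-210 libraries and 91.3 and 98.0 CPM in untreated libraries (log2 fold change 0.09, 95% interval -0.01 to 0.19). It passed without untreated replicate 2 (edgeR adjusted p = 0.0473). Its partner gene Slc25a12, for aralar, had 41.1 and 42.5 CPM in BML-210 libraries and 41.5 and 39.7 CPM in untreated libraries. The branched-chain amino acid carrier gene Slc25a44, the ornithine carrier gene Slc25a15 and the glutamate carrier gene Slc25a22 had log2 fold changes of -0.12, -0.10 and 0.10, and the 95% intervals were wide for the glycine carrier gene Slc25a38 (-0.55 to 0.32) and the basic amino acid carrier gene Slc25a29 (-0.73 to 0.31), both under 6 CPM. Slc25a18 and Slc25a2 were too low to test, Slc25a18 with 4 and 5 counts in BML-210 libraries and 1 and 0 in untreated libraries.

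Slc25a20, for the carnitine-acylcarnitine exchanger that admits fatty acids for oxidation, had 6.59 and 7.49 CPM in BML-210 libraries and 9.74 and 9.54 CPM in untreated libraries. It fell by 0.45 on the log2 scale (SE 0.16, adjusted p = 0.0149 in edgeR), with groups that did not overlap. The call ended without BML-210 replicate 1 (adjusted p = 0.129), without untreated replicate 1 (0.0545) and in DESeq2.

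None of the 3 carriers grouped with the uncoupling proteins passed in edgeR, limma-voom or DESeq2, beside 46.4% of all tested genes in edgeR. None of the 3 had an unadjusted p below 0.05. Slc25a30 was the most abundant, with 113 and 107 CPM in BML-210 libraries and 112.5 and 109.8 CPM in untreated libraries, and Slc25a27 had 23.4 and 25.5 CPM in BML-210 libraries and 27.6 and 26.9 CPM in untreated libraries. Slc25a14 was uneven, with 8 and 28 counts in BML-210 libraries and 29 and 24 in untreated libraries. Without BML-210 replicate 2 its log2 fold change was -1.52 (edgeR adjusted p = 0.0242), so that value rests on the lone low library.

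Of 6 tested members whose cargo is unsettled or who may carry none, 2 were higher, beside 22.9% of all tested genes. Slc25a46, whose product sits in the outer membrane and acts in mitochondrial shape, had 112 and 112 CPM in BML-210 libraries and 104 and 101.3 CPM in untreated libraries (log2 fold change 0.13, edgeR adjusted p = 0.0190). Its call ended under 5 of the 12 settings: without BML-210 replicate 1 (adjusted p = 0.0922), BML-210 replicate 2 (0.0916) or untreated replicate 2 (0.0945), with upper-quartile scaling (0.0730) and in DESeq2 (0.154). Slc25a45 had 38 and 60 counts (2.88 and 4.28 CPM) in BML-210 libraries and 35 and 28 counts (2.13 and 2.04 CPM) in untreated libraries, a log2 fold change of 0.78 (SE 0.27, adjusted p = 0.0156 in edgeR). Without BML-210 replicate 2 it was 0.46 (adjusted p = 0.328), without untreated replicate 2 the adjusted p was 0.0532, and in DESeq2 it was 0.154. Slc25a53 (log2 fold change 0.32, edgeR adjusted p = 0.0535) passed without untreated replicate 2 (0.53, adjusted p = 0.00587), when scaled by library size alone (0.0412), with the replicate number as a block (0.0449) and in limma-voom (0.0423). Slc25a47 had 1.21 and 2.28 CPM in BML-210 libraries and 0.791 and 1.24 CPM in untreated libraries, overlapping values. Its log2 fold change of 0.81, the largest positive one among the 39, did not pass (edgeR adjusted p = 0.0845), and without BML-210 replicate 1 it was 1.19 (0.0276). Slc25a43 and Slc25a35 did not pass at 0.52 and -0.39, and Slc25a34, Slc25a54 and Slc25a48 were too low to test. Slc25a35 shares exon sequence with Rangrf on the opposite strand, a more abundant gene at -0.292 (edgeR adjusted p = 0.166).

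Some called carriers share exon sequence with a neighbour, whose own counts were at or near 0. The opposite-strand neighbours of Slc25a23 and Slc25a37 (Gm17168, Gm27223 and Gm31748) had 0 counts in all 4 libraries, as had Gm25692 on the strand of Slc25a51. B930094E09Rik, opposite Slc25a46, had 0 and 6 counts in BML-210 libraries and 5 and 3 in untreated libraries.

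**Figure D4:**
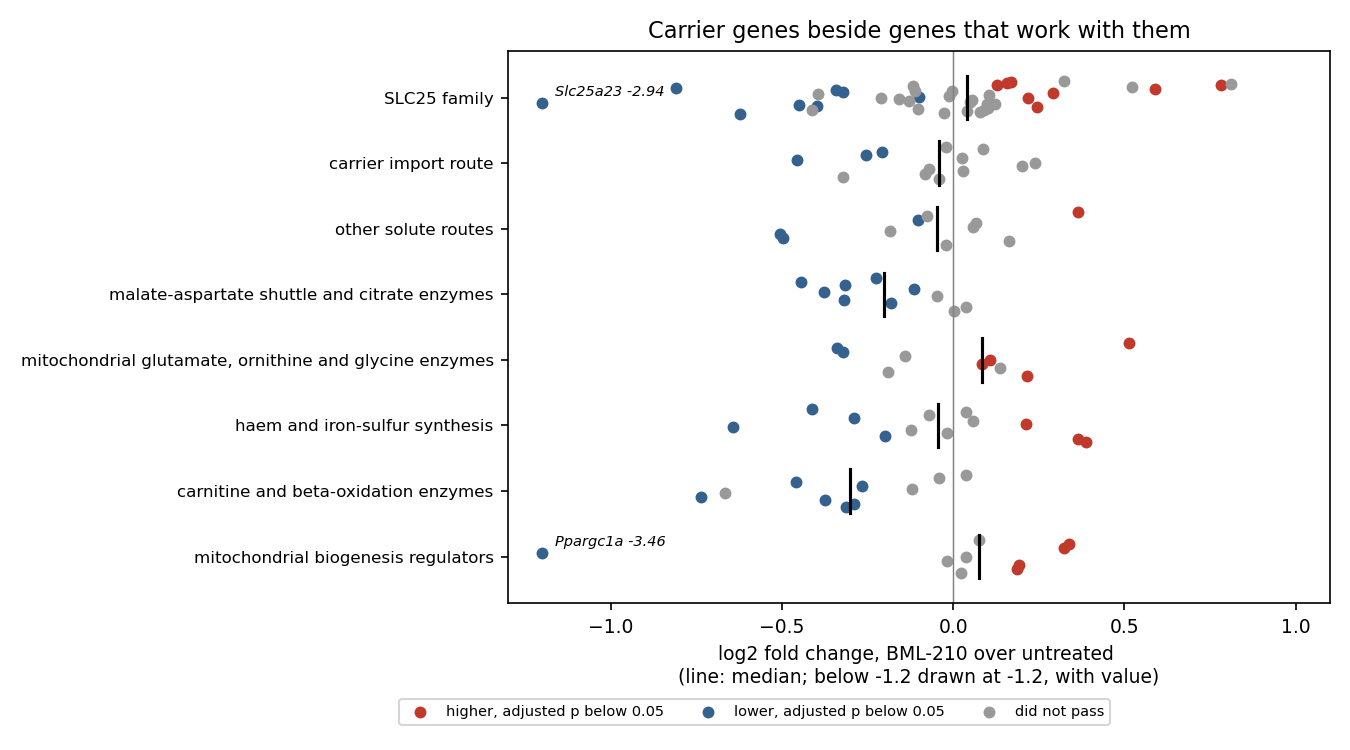
Log2 fold change, BML-210 over untreated, of the SLC25 genes and of 7 lists of genes that work beside them; each point is a tested gene coloured by the test, and the line is the list's median. All called points of the shuttle and citrate enzymes and of the beta-oxidation enzymes lie on the lower side, and Slc25a23 and Ppargc1a are drawn at the left edge with their values.

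Genes that belong to the family under other names, Mtch1 and Mtch2 of the outer membrane, had log2 fold changes of -0.13 and -0.05 and did not pass (edgeR adjusted p = 0.0658 and 0.418). Of the pair, 1 was called lower without BML-210 replicate 2, with upper-quartile scaling and with genes of at least 1 CPM. The uncoupling protein genes Ucp1, Ucp2 and Ucp3 were too low to test, all under 0.4 CPM.

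Genes that work with the carriers were read from 7 lists, beside the 22.9% of all tested genes called higher and the 23.5% called lower. Of 13 genes of the route by which carriers are imported, 3 were lower and 0 higher: Tomm20 (-0.25), the outer membrane receptor, its partner Tomm22 (-0.21) and the small chaperone gene Timm8b (-0.46). The channel gene Timm22 (-0.07) and the carrier receptor gene Tomm70a (-0.02) did not pass. DESeq2 called 2 genes of the list lower and 0 higher. Without BML-210 replicate 1, 1 gene of the list was called higher. Their median of -0.04 lay near that of all tested genes.

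Other routes for solutes held 3 lower and 1 higher gene of 10. Mpc1, a subunit of the pyruvate carrier, fell by 0.51 on the log2 scale (adjusted p = 3.03e-08 in edgeR). Vdac3, a pore of the outer membrane, rose by 0.37 (edgeR adjusted p = 8.08e-09), and Vdac1 fell by 0.10.

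The enzymes on either side of the citrate, oxoglutarate and aspartate-glutamate carriers included 7 of 10 that fell and 0 that rose, with a median of -0.20. The mitochondrial malate dehydrogenase gene Mdh2 had 163 and 165 CPM in BML-210 libraries and 221 and 226 CPM in untreated libraries (log2 fold change -0.44, edgeR adjusted p = 2.19e-15). The mitochondrial aspartate aminotransferase gene Got2 (-0.38), the citrate synthase gene Cs (-0.32) and the cytosolic Mdh1 (-0.32) fell too. The ATP citrate lyase gene Acly, which uses exported citrate, had 88.6 and 78.5 CPM in BML-210 libraries and 80.9 and 81.7 CPM in untreated libraries and did not pass.

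Of 10 tested genes of carnitine use and beta-oxidation, 6 fell and 0 rose, and the median was -0.30. In DESeq2, 4 genes of the list were lower. With no filter on low counts 1 gene of the list was called higher. Cpt1b, too low for the main test, had 6 and 6 counts in BML-210 libraries and 0 and 1 in untreated libraries. Cpt1a, whose product makes the acylcarnitines that Slc25a20 carries, had 28.9 and 29.0 CPM in BML-210 libraries and 47.7 and 48.8 CPM in untreated libraries (log2 fold change -0.74, edgeR adjusted p = 7.01e-13). The dehydrogenase genes Acadl (-0.31), Acadvl (-0.37) and Etfdh (-0.46) fell, while Cpt2 (-0.12), which acts on the matrix side, did not pass.

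Of 9 tested enzymes of mitochondrial glutamate, ornithine and glycine metabolism, 4 were higher and 2 lower. Shmt2, which makes glycine from serine, rose by 0.51 (edgeR adjusted p = 4.27e-21) and the proline and ornithine synthesis gene Aldh18a1 by 0.22. The proline synthesis gene Pycr1 (-0.32) fell, though it did not pass in DESeq2, which called 0 genes of the list lower. Of 12 genes of haem and iron-sulfur synthesis, 3 were higher and 4 lower. Abcb10, an inner membrane transporter that binds mitoferrin-1 in mice, had 81.8 and 79.0 CPM in BML-210 libraries and 61.6 and 61.2 CPM in untreated libraries, a rise of 0.39 (edgeR adjusted p = 2.41e-08) beside the fall of Slc25a37. Urod (-0.41), the cluster scaffold gene Iscu (-0.29) and Alas1 (-0.20), the first enzyme of haem synthesis, fell. Without BML-210 replicate 1 and without untreated replicate 1 the lower genes of this list numbered 2, and in DESeq2 1.

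Among 9 tested regulators of mitochondrial biogenesis, 4 were higher and 1 lower. The coactivator gene Ppargc1a was low and fell further, with 0.303 and 0.357 CPM in BML-210 libraries and 4.14 and 3.28 CPM in untreated libraries, a log2 fold change of -3.46 (edgeR adjusted p = 2.05e-10). The related gene Pprc1 (0.32), the mitochondrial DNA packaging gene Tfam (0.34), Gabpa (0.19) and Nrf1 (0.19) rose. The adjusted p of Nrf1 was 0.0179 in edgeR, and DESeq2 called 3 genes of this list higher.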

How the data were processed

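Total RNA was sequenced as paired reads of 100 bases, per the labels. The authors deposited raw read counts per gene, with exonic length. STAR 2.5, featureCounts of Subread 1.5.1 and edgeR 3.20.8 are named, with build mm10, per the submitters' processing notes. No source used here gives the strand setting, the treatment of multi-mapping reads or the annotation.

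The test was edgeR 4.0.16 (R 4.3.3): filterByExpr (14455 of 56350 genes kept), TMM scaling, and the quasi-likelihood test (robust) on the group alone, with 2 residual degrees of freedom and Benjamini-Hochberg adjustment over all tested genes. SE is the log2 fold change over the square root of F, an approximation, and intervals rest on it. The test and the intervals use total degrees of freedom, which add to the 2 residual ones a prior estimated over all genes. They thus borrow from the spread of other genes between these libraries. RPKM are TMM-scaled CPM per kilobase of exon. A count of 3 equals 0.183 to 0.227 CPM, and counting limits cover counting error only. Chi-square per degree of freedom between replicates was 1.76 for BML-210 and 2.70 for untreated, above the 1 of pure counting noise. On simulated counts for this comparison (14155 genes tested) the test recovered 69.1% of 97 genes with a log2 change of 0.5 and 80.2% of 91 with a change of 1, with 9 false of 149 calls. The changed genes were a far smaller share there than the 46.4% of tested genes called in the libraries, so these rates may not carry over.

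Alternatives were RLE, upper-quartile and no scaling, other filters, the replicate block, each library left out, DESeq2 1.42.0 and limma-voom (limma 3.58.1). Members and lists were chosen with earlier results of these data known. Values per library are given for called members of at least 5 CPM, the most abundant of each class and the ends of the range; other members are given too, some chosen after their values were seen, as were some genes of the lists beside the 4 with the smallest adjusted p. Coding sequences came from GENCODE M21 and windows before starts from RefSeq (GRCm38.p6), where 36 of the 48 names matched. Some genes counted among the members and lists are not reported here by name, and 1 tested member is not drawn in the plots of levels and changes.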

Additional observations from a re-analysis of the deposited data

How the results depend on the processing

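The counts of called members were 8 higher and 8 lower. They were 7 to 9 in either direction under other scaling, filters and limma-voom, 2 higher and 5 lower in DESeq2, and between 5 and 6 higher and between 6 and 8 lower when each library was left out. The replicate block gave 9 higher and 9 lower. The replicate numbers share only a number: the deviations of replicate 1 in each group correlated at 0.0155 over genes. Of the 16 called members 7 kept the call throughout and 9 lost it at least once. Members that did not pass changed sign 18 times, 11 genes in all. With library size only, Slc25a39 was 0.013 and Slc25a30 0.0022, and with no filter Slc25a39 was 0.0012. With a library left out the log2 fold change ranged over -0.043 to 0.13 for Slc25a24, -0.085 to 0.28 for Slc25a22, -0.38 to 0.10 for Slc25a38, -0.48 to 0.0017 for Slc25a29, -0.0013 to 0.19 for Slc25a16, -0.026 to 0.13 for Slc25a26, -0.22 to 0.14 for Slc25a10, -0.20 to 0.37 for Slc25a21, -0.026 to 0.017 for Slc25a39, -0.056 to 0.026 for Slc25a30 and -1.52 to 0.18 for Slc25a14. The causes were not tested. The median of all genes moved by under 0.1 (log2) under each scaling. Depth limits members under 5 CPM, whose intervals are wide.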
